A study of Drosophila melanogaster with 54 samples.

Results

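The genes kirre, rst, hbs and sns of Drosophila melanogaster encode the Irre cell recognition module, a family of 4 immunoglobulin superfamily proteins of the cell surface. All probe sets annotated to 1 of these 4 genes alone were taken, which gave 9 of the 13966 probe sets tested. They were 144253_at for kirre, 143327_at for rst, 147231_at for hbs, and 6 probe sets for sns (146835_at, 146836_at, 146837_at, 146838_at, 146839_at and 151249_at). No probe set of several genes included a member. In the annotation used for gene names, rst lies wholly within the span of kirre on the X chromosome, 1 of 22 genes that do, and hbs and sns lie on chromosome arm 2R. The locus of sns carries 9 former gene numbers, and the position of its 6 probe sets along the gene was not analysed here.

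Body wall muscle of the embryo forms by fusion of founder cells, each the seed of a particular muscle, with fusion-competent myoblasts. Kirre (also called Dumbfounded) and Rst (Roughest) act redundantly as receptors in founder cells. They are called founder-side receptors below for that role, and the name does not say that their RNA is limited to founder cells. Sns (Sticks and stones) is the receptor of the fusion-competent side and binds Kirre and Rst across the contact, and Hbs (Hibris) is its close relative, which can assist or modulate Sns. The same 4 proteins sort cells in the developing eye and build the slit diaphragm of the nephrocyte.

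RNA came from cells sorted by fluorescence from stage 11 embryos at 25 °C in which twi-GAL4 drove UAS-GFP in the mesoderm, GFP positive cells in 15 groups and GFP negative wild type cells in 3, and was hybridised to 54 Affymetrix DrosGenome1 arrays in 18 groups of 3. Every embryo carried twi-GAL4 and UAS-GFP, wild type included, so each gain of function was driven in the whole twi domain. Set 1 held UAS-lambda-Top (activated EGFR), UAS-lambda-Htl with UAS-Dof (activated FGFR), spi mutants, and wild type cells of both gates. Set 2 held UAS-Arm s10, UAS-Ras1 Act, both together (Arm+Ras), UAS-Pnt P2VP16, UAS-Tkv QD, wg mutants, and its own wild type cells of both gates. Set 3 held Dl mutants, lmd mutants, UAS-Notch intra, and its own wild type cells of both gates. Embryos were 5.5 to 7.5 h old, except that the mutants and the Notch line of set 3 were labelled 6 to 8 h, later than the wild type of that set. The alleles of the mutants are not named in the sources used here.

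All values are log2 expression per probe set as deposited. Array medians were 4.57 to 4.62 in set 1, 4.17 to 4.27 in set 2 and 3.64 to 3.72 in set 3, so differences were tested only between arrays of the same set, or with the set as a block. Of the targeted genes, Egfr was higher in EGFR gain by 3.41 ± 0.14 (SE, adjusted p = 6.17e-09), htl in FGFR gain by 1.87 ± 0.32 (adjusted p = 0.00521) and tkv in Tkv gain by 4.04 ± 0.17 (adjusted p = 1.03e-11). Egfr and tkv each have a second probe set, with smaller differences of 0.70 ± 0.13 for Egfr (adjusted p = 0.0074) and 1.61 ± 0.66 for tkv (adjusted p = 0.167). The probe sets of spi in spi loss (0.00 ± 0.04) and of lmd in the arrays labelled lmd loss (0.44 ± 0.12, adjusted p = 0.149) were not lower, and so did not check those labels. The sort could be checked in wild type, where 7 of 7 measured mesoderm genes were higher in GFP positive cells and 9 of 9 measured ectoderm and neural genes were lower. Hemocyte genes, 5 of 6, were also higher in GFP positive cells. Differences below were tested with limma and adjusted over all probe sets by the Benjamini-Hochberg method, and a probe set was called at adjusted p below 0.05.

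Both founder-side receptors rose in mesoderm with an activated receptor tyrosine kinase. On the kirre probe set the 3 arrays of EGFR gain read 6.65, 6.83 and 6.91 and those of FGFR gain 6.34, 6.43 and 6.36, against 4.69, 5.07 and 4.24 in wild type GFP positive cells. The rst probe set read 7.39, 7.59 and 7.33 in EGFR gain and 7.29, 7.44 and 7.17 in FGFR gain, against 4.53, 4.73 and 4.81 in wild type. Every array of both genotypes lay above every wild type array on both probe sets. The difference for kirre was 2.13 ± 0.22 on the log2 scale in EGFR gain (4.37-fold, adjusted p = 8.69e-05) and 1.71 ± 0.22 in FGFR gain (3.26-fold, adjusted p = 0.000647). For rst it was 2.75 ± 0.24 in EGFR gain (6.71-fold, adjusted p = 1.37e-05) and 2.61 ± 0.24 in FGFR gain (6.11-fold, adjusted p = 2.55e-05). Both comparisons share the same wild type arrays. The members called were 2 of 9 in EGFR gain and 3 of 9 in FGFR gain, where 2.74% and 2.21% of all probe sets were called. A whole population was measured, so fewer cells of a type and less RNA per cell cannot be told apart.

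The receptors of the fusion-competent side did not rise with them. On the hbs probe set the arrays read 5.99, 5.92 and 5.99 in EGFR gain and 5.46, 5.64 and 5.77 in FGFR gain, against 6.21, 6.30 and 6.41 in wild type. All 6 arrays of the activated receptors were below the 3 wild type arrays. The fall was called in FGFR gain, at -0.68 ± 0.12 (1.6-fold lower, adjusted p = 0.00783), and missed the threshold in EGFR gain, at -0.34 ± 0.12 (adjusted p = 0.216). The call in FGFR gain was lost when only the groups compared were fitted (adjusted p = 0.104) and without the arrays lettered A (adjusted p = 0.136).

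No sns probe set was called in either genotype. The brightest, 146838_at, averaged 7.16 ± 0.30 in EGFR gain and 6.93 ± 0.04 in FGFR gain, against 7.15 ± 0.30 in wild type (SD, n = 3 each). It separated mesoderm from other cells only weakly, with a wild type GFP negative mean of 6.79 in set 1. The probe set 146839_at read 3.47, 4.22 and 4.01 in EGFR gain and 3.00, 3.55 and 3.85 in FGFR gain, against 4.44, 4.69 and 3.96 in wild type. The FGFR gain arrays lay below wild type and those of EGFR gain overlapped it. The FGFR gain difference was -0.90 ± 0.39 (adjusted p = 0.344).

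**Figure D1:**
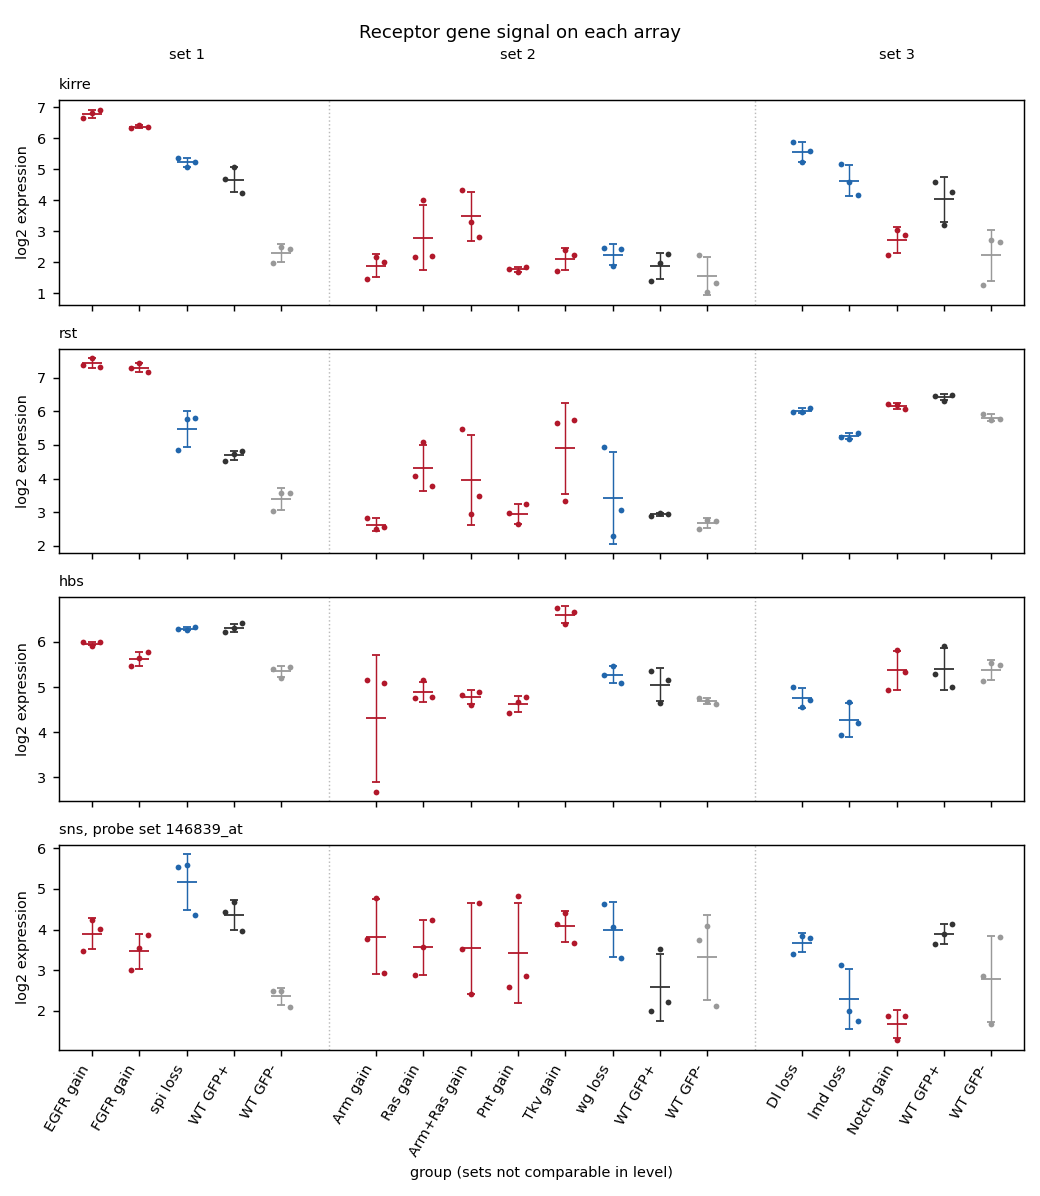
Log2 expression of the kirre, rst and hbs probe sets and of sns 146839_at on each of the 54 arrays (points), with the group mean and SD (bars, n = 3), in sets 1 to 3 from left to right. The EGFR and FGFR gain arrays lie above wild type for kirre and rst, and kirre in wild type GFP positive cells of set 2 lies between 1.40 and 2.25.

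Other genes of the fusion pathway moved in both directions in these genotypes. Of 9 measured genes of the fusion machinery, 1 was higher and 2 were lower in EGFR gain and in FGFR gain alike. The higher gene was rols, the founder-side adaptor that works beside Kirre, at 1.26 ± 0.21 in EGFR gain and 1.35 ± 0.21 in FGFR gain. The lower genes were blow and Vrp1, actin regulators of the fusion-competent side, with Vrp1 at -2.51 ± 0.38 in EGFR gain and -2.43 ± 0.38 in FGFR gain. Of 12 founder identity genes, 6 were higher and 0 lower in both genotypes, with a median over the list of 0.82 in EGFR gain and 0.70 in FGFR gain, beside 0.01 over all probe sets. Of 4 fusion-competent markers, 0 were higher and 3 lower in both, with medians of -0.98 in EGFR gain and -1.08 in FGFR gain. The mean over 9 ectoderm and neural genes was 5.62 to 6.25 in EGFR gain and 5.99 to 6.18 in FGFR gain, against 6.19 to 6.45 in wild type, and its part in the receptor differences was not tested.

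Compared directly, EGFR gain and FGFR gain did not differ in any member by limma, with 0 of 9 called, 1 at an unadjusted p under 0.05 (hbs), and 0.229% of all probe sets called. The difference was 0.42 ± 0.22 for kirre (adjusted p = 0.558) and 0.13 ± 0.24 for rst (adjusted p = 0.898). The kirre arrays of the 2 genotypes did not overlap, with FGFR gain the lower. A difference of this size was therefore not resolved with 3 arrays each.

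Loss of spi, a gene for an EGFR ligand, did not lower either founder-side receptor. The rst probe set read 4.86, 5.77 and 5.81 in spi loss against 4.53, 4.73 and 4.81 in wild type. The spi loss arrays were all above wild type. The difference of 0.79 ± 0.24 was not called (adjusted p = 0.0947), but was called without spi loss A (1.10, adjusted p = 0.0106). For kirre the arrays read 5.37, 5.06 and 5.24 in spi loss and overlapped wild type by a narrow margin (0.56 ± 0.22, adjusted p = 0.217). By limma 0 of 9 members were called, 2 had an unadjusted p under 0.05, and 3.19% of all probe sets were called. Of 9 ectoderm and neural genes 0 were higher and 3 lower in spi loss. Their mean was 5.6 to 5.83 in spi loss against 6.19 to 6.45 in wild type, and its part in the receptor values was not tested. The order of the kirre means in set 1 was EGFR gain, FGFR gain, spi loss, wild type GFP positive and wild type GFP negative, and that of rst was the same. Ranges of neighbours overlapped between spi loss and wild type for kirre and between EGFR gain and FGFR gain for rst.

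**Figure D2:**
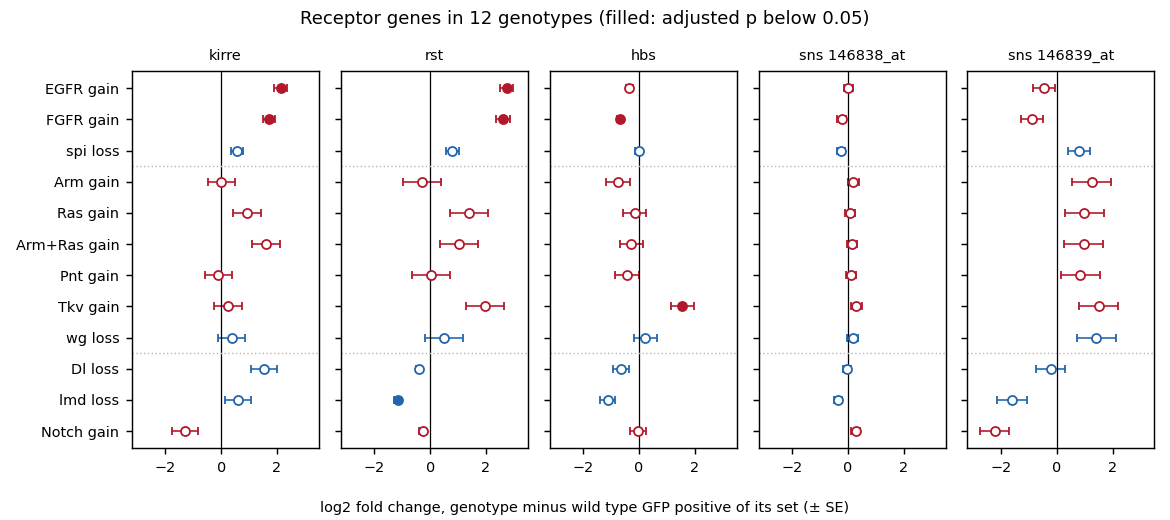
Log2 fold change of kirre, rst, hbs and 2 sns probe sets in 12 genotypes (rows) against the wild type GFP positive cells of the same set, with the SE from limma. Filled points have an adjusted p below 0.05, and they fall on EGFR and FGFR gain for kirre and rst, on FGFR and Tkv gain for hbs, and on lmd loss for rst. The call of sns 146837_at in Pnt gain is not drawn.

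In set 2, which had its own wild type arrays, activated Ras and Pointed act further downstream in the same pathway. Its Arm, Tkv and wg genotypes concern other pathways. In wild type GFP positive cells kirre stood at the 17.5th percentile of all probe sets in set 2, beside the 52.8th in set 1 and the 56.9th in set 3, ranks that the separate processing of the sets may move. Its arrays read 1.40, 1.97 and 2.25 in wild type GFP positive cells of set 2. With Arm+Ras they read 4.33, 3.29 and 2.81, and the groups did not overlap. The difference of 1.60 ± 0.49 was not called (3.03-fold, adjusted p = 0.115).

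Activated Ras alone gave 2.18, 3.99 and 2.20 for kirre, so that the replicate B array stood apart from the others (0.92 ± 0.49, adjusted p = 0.425). The rst probe set read 4.08, 5.09 and 3.78 in Ras gain against 2.90, 2.98 and 2.94 in wild type. The Ras gain arrays were all above wild type, with a difference of 1.38 ± 0.68 (adjusted p = 0.366). For Arm+Ras the rst arrays were 5.49, 2.94 and 3.47 and overlapped wild type. Activated Arm gave differences of 0.01 ± 0.49 for kirre and -0.31 ± 0.68 for rst. The SE draw on the spread of all groups of set 2, not only of those compared. The rst SD was 0.04 in wild type GFP positive cells and 1.34 to 1.36 in Arm+Ras, Tkv gain and wg loss. For hbs the Arm gain replicate B array read 2.68, against 5.15 and 5.09 on the others. That array enters every hbs SE of set 2.

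By limma, 0 of 9 members were called in Arm gain, where 6.92% of all probe sets were called, in Ras gain, where 4.59% were, and in Arm+Ras, where 2.42% were. At an unadjusted p under 0.05 the members were 0, 0 and 1. Between Arm+Ras and Ras gain 0 of 9 were called and 0 had an unadjusted p under 0.05, with 1.6% of all probe sets called. Between Arm+Ras and Arm gain 0 of 9 were called and 1 had an unadjusted p under 0.05, with 7.2% of all probe sets called. That member was kirre, higher by 1.59 ± 0.49 in Arm+Ras (adjusted p = 0.0565), and called without Arm+Ras C (1.93, adjusted p = 0.0444). Of the 6 hemocyte genes 2, Ppn and vkg, were higher and 0 lower in both Ras gain and Arm+Ras, and the mean over the list was 7.38 to 7.78 in Ras gain and 7.44 to 7.61 in Arm+Ras, against 6.16 to 6.57 in wild type. Its part in the receptor values was not tested. The founder identity genes of the same arrays had 5 of 12 higher and 0 lower in Ras gain, and 6 of 12 higher and 0 lower in Arm+Ras, with nau, a muscle identity factor, at 2.51 ± 0.58 in Ras gain and 2.28 ± 0.58 in Arm+Ras. The fusion gene rols was higher in both as well, at 1.86 ± 0.34 in Ras gain and 1.74 ± 0.34 in Arm+Ras.

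With activated Pointed, a transcription factor that acts below Ras and MAP kinase, no difference from wild type was resolved for kirre or rst. In wild type of set 2 the kirre signal of GFP positive cells overlapped that of GFP negative cells, so a fall could hardly be seen. The kirre arrays read 1.76, 1.69 and 1.85 in Pnt gain, within the wild type range, and rst differed by 0.01 ± 0.68. Against Ras gain, 0 of 9 members were called in Pnt gain by limma and 1 had an unadjusted p under 0.05 (sns 146837_at, 0.69 ± 0.32, adjusted p = 0.232), with 9.77% of all probe sets called. The rst difference was -1.37 ± 0.68 (adjusted p = 0.276), and the Pnt gain arrays lay below all Ras gain arrays.

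In Pnt gain against wild type 1 of 9 members was called, a share near the 8.85% of all probe sets called. It was the dim sns probe set 146837_at, which read 3.38, 3.86 and 3.75 in Pnt gain against 2.19, 2.72 and 2.58 in wild type. The groups did not overlap, and the difference was 1.17 ± 0.32 (adjusted p = 0.0235). The call was lost in 4 of 6 fits that left out an array (Pnt gain B or C, wild type A or C, adjusted p up to 0.121). The brightest sns probe set differed by 0.10 ± 0.19 in the same comparison. The actin 3′ minus 5′ signal was 1.16 to 1.27 in Pnt gain against 0.88 to 1.00 in wild type, the GAPDH one was -1.14 to -0.45 against 0.14 to 0.19, and the hybridization spikes averaged 9.96 to 10.3 against 9.01 to 9.49. Of 9 ectoderm and neural genes 0 were higher and 4 lower in Pnt gain, with a mean over the list of 3.83 to 4.05 against 4.77 to 5.43 in wild type. The part of these values in the call was not tested.

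Activated Tkv, the type I receptor of Dpp, went with a higher hbs signal. Its arrays read 6.76, 6.40 and 6.66 in Tkv gain against 5.36, 4.66 and 5.15 in wild type GFP positive cells. Tkv gain was above every other array of set 2 on this probe set. The difference was 1.55 ± 0.42 (2.93-fold, adjusted p = 0.0229). In Tkv gain hbs was the 1 member called of 9, a share near the 8.38% of all probe sets called. Without Tkv gain A or C, or wild type B or C, the adjusted p was between 0.0634 and 0.12. Leaving out all arrays lettered A also ended the call (adjusted p = 0.148).

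The rst arrays of Tkv gain read 5.64, 3.35 and 5.73, also above wild type, with replicate B well below the others. The difference of 1.97 ± 0.68 was not called (adjusted p = 0.0866), and was called without that array (2.75, adjusted p = 0.0138). The kirre arrays of Tkv gain overlapped wild type (0.24 ± 0.49). The 3′ minus 5′ signal of the eIF-4a control probe sets was 1.81 on the Tkv gain arrays, against 2.01 to 2.24 in wild type. The GAPDH one was -0.72 to -0.46 against 0.14 to 0.19, and the actin one 0.53 to 0.68 against 0.88 to 1.0. The part of these values in the hbs result was not tested. Of the fusion machinery genes 3 of 9 were higher and 0 lower in Tkv gain, namely blow, siz and Ced-12, and of 6 hemocyte genes 3 were higher and 0 lower. The mean over the hemocyte genes was 7.24 to 7.46 in Tkv gain against 6.16 to 6.57 in wild type, and its part was not tested.

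Loss of wg called 0 of 9 members by limma, and 0 had an unadjusted p under 0.05, where 26.6% of all probe sets were called. In wild type GFP positive cells of set 2 kirre stood at percentile 17.5 and rst at 33.2. A fall of these 2 genes could therefore hardly be seen. The differences were 0.37 ± 0.49 for kirre, 0.48 ± 0.68 for rst and 0.22 ± 0.42 for hbs. The rst arrays ran from 2.28 to 4.93 in wg loss, the widest spread of that probe set in any group (SD 1.36). The wg loss arrays also stood apart in the eIF-4a 3′ minus 5′ signal, at 3.29 to 3.59 against 2.01 to 2.24 in wild type. The GAPDH and actin signals and the hybridization spikes were above wild type too, with actin at 1.38 to 1.39 against 0.88 to 1.0. The part of these values in the member differences was not tested.

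**Figure D3:**
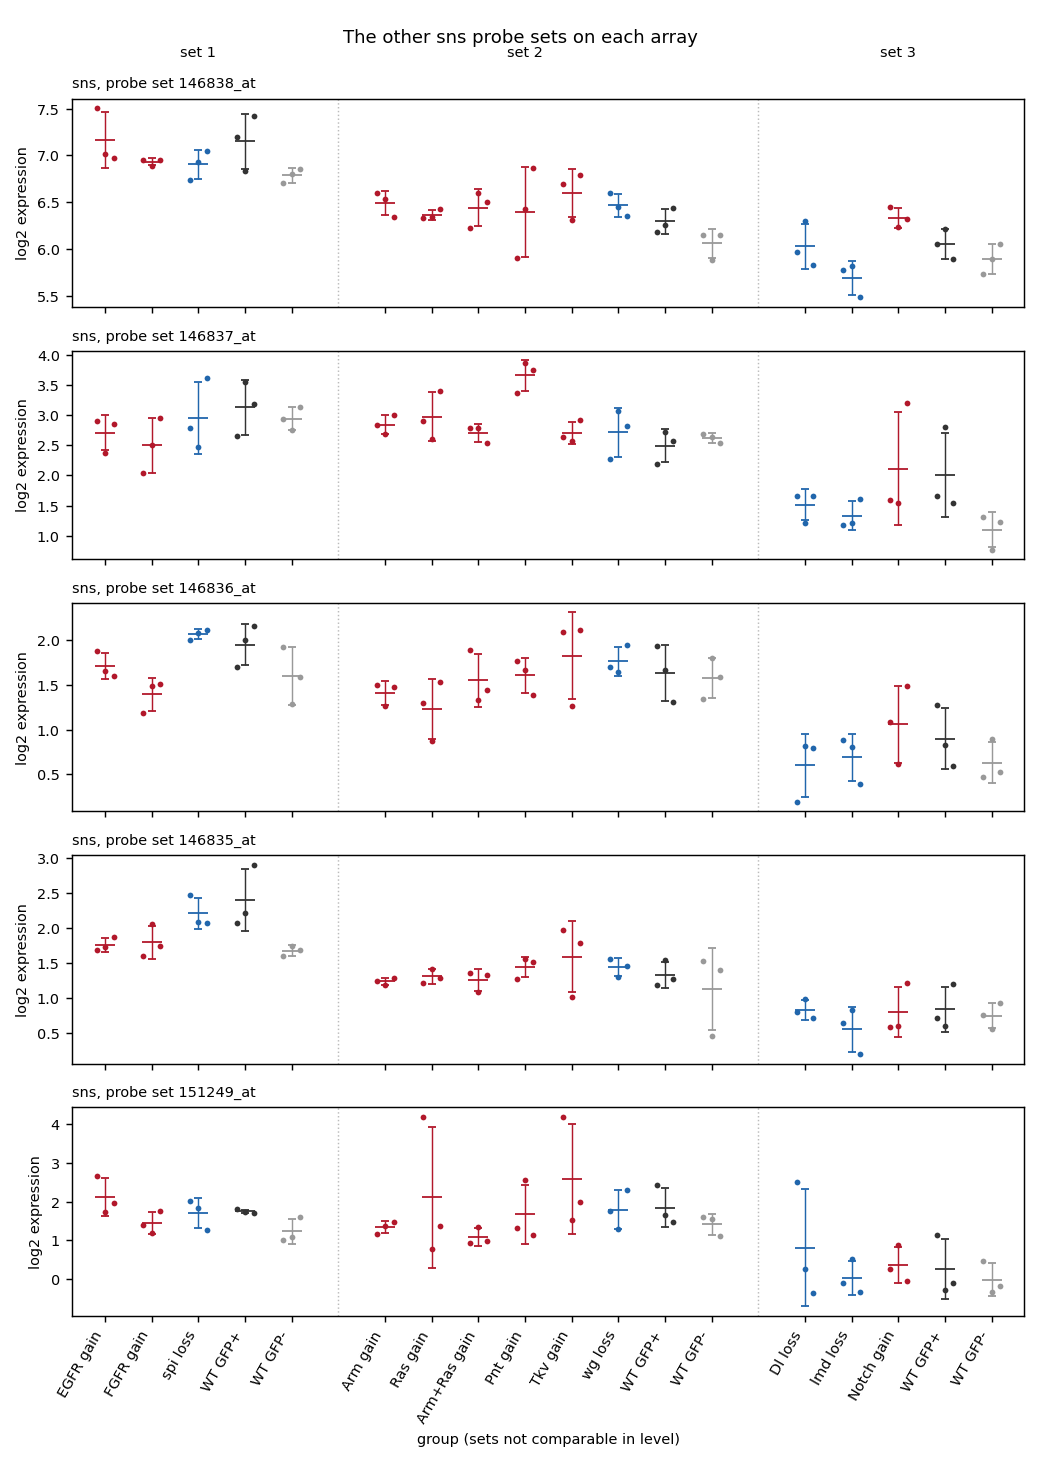
Log2 expression of the other 5 sns probe sets on each array (points), with the group mean and SD (bars, n = 3), in sets 1 to 3 from left to right. The probe set 146838_at stays between 5.48 and 7.51 on all arrays, and the others lie lower.

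Set 3 held genotypes known to shift myoblasts between the founder and the fusion-competent fate. Loss of Dl removes a ligand of Notch, activated Notch acts the other way, and lmd encodes the transcription factor of fusion-competent myoblasts. The kirre arrays read 5.87, 5.22 and 5.58 in Dl loss, 5.16, 4.58 and 4.16 in lmd loss and 2.25, 3.02 and 2.88 in Notch gain, against 4.58, 3.21 and 4.28 in wild type. Dl loss lay above wild type, Notch gain below it, and lmd loss overlapped it.

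Against wild type no kirre difference was called. It was 1.53 ± 0.46 in Dl loss (adjusted p = 0.118), 0.61 ± 0.46 in lmd loss (adjusted p = 0.722) and -1.31 ± 0.46 in Notch gain (adjusted p = 0.273), 3 comparisons that share 1 wild type group whose kirre SD was 0.72. Compared directly, Notch gain was lower than Dl loss, with a difference of -2.84 ± 0.46 (7.16-fold lower, adjusted p = 0.00157), and this held in every fit that left out 1 array. lmd loss was higher than Notch gain by 1.92 ± 0.46 (adjusted p = 0.0327). That call was lost in 5 of 6 such fits, all except the fit without lmd loss C (adjusted p up to 0.115).

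The rst gene ordered these genotypes differently from kirre. Its arrays read 5.99, 5.98 and 6.10 in Dl loss, 5.24, 5.18 and 5.37 in lmd loss and 6.22, 6.19 and 6.07 in Notch gain, against 6.47, 6.32 and 6.50 in wild type. All 9 arrays of the 3 genotypes lay below the wild type arrays. The fall was called in lmd loss, at -1.17 ± 0.11 (2.25-fold lower, adjusted p = 7.95e-05), and not in Dl loss (-0.41 ± 0.11, adjusted p = 0.0859) or Notch gain (-0.27 ± 0.11, adjusted p = 0.418). lmd loss was also lower than Dl loss, at -0.76 ± 0.11 (adjusted p = 0.00213), and lower than Notch gain, at -0.90 ± 0.11 (adjusted p = 0.000263), and its mean of 5.26 was below the 5.82 of wild type GFP negative cells. Fitted on the groups compared alone, the difference from Dl loss was not called (adjusted p = 0.0973).

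The hbs arrays read 3.94, 4.68 and 4.20 in lmd loss against 5.29, 5.92 and 5.0 in wild type, without overlap. The difference of -1.13 ± 0.28 (2.19-fold lower) was not called (adjusted p = 0.0844). Notch gain read 4.94, 5.82 and 5.34 for hbs and overlapped wild type, while lmd loss was below Notch gain, at -1.09 ± 0.28 (adjusted p = 0.046). This call was lost in 4 of 6 fits that left out an array (lmd loss A or C, Notch gain B or C, adjusted p up to 0.192). Dl loss lay between, at 5.0, 4.56 and 4.70 (-0.65 ± 0.28 from wild type, adjusted p = 0.367).

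For sns the 2 brightest probe sets differed, and 146839_at had the highest median replicate SD of the member probe sets (0.68). On 146839_at the arrays read 3.40, 3.83 and 3.79 in Dl loss, 3.12, 2.00 and 1.74 in lmd loss and 1.86, 1.27 and 1.87 in Notch gain, against 3.63, 3.89 and 4.14 in wild type. Notch gain and lmd loss lay below wild type, and Dl loss overlapped it. The difference from wild type was -2.22 ± 0.52 in Notch gain (adjusted p = 0.0524) and -1.60 ± 0.52 in lmd loss (adjusted p = 0.239). Notch gain was lower than Dl loss, at -2.01 ± 0.52 (adjusted p = 0.0381), a call lost in 6 of 6 fits that left out an array (adjusted p up to 0.131).

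On the brighter 146838_at the arrays read 5.78, 5.82 and 5.48 in lmd loss and 6.45, 6.24 and 6.32 in Notch gain, against 6.06, 6.22 and 5.90 in wild type. Here Notch gain lay above wild type and lmd loss below it, neither called against wild type. The difference between lmd loss and Notch gain was -0.64 ± 0.15 (adjusted p = 0.0327), a call lost in 5 of 6 fits that left out an array, all except the fit without lmd loss A (adjusted p up to 0.132). The direction of sns in Notch gain thus depended on the probe set.

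Counted over the 9 probe sets, limma called 0 in Dl loss, where 2.37% of all probe sets were called, 1 in lmd loss, where 1.03% were, and 0 in Notch gain, where 1.48% were, with 3, 4 and 3 of the 9 at an unadjusted p under 0.05. Between genotypes it called 1 for lmd loss against Dl loss (1.7% of all probe sets), 2 for Notch gain against Dl loss (5.36%) and 4 for lmd loss against Notch gain (3.61%). The eIF-4a 3′ minus 5′ signal was 2.80 to 3.87 in lmd loss, 2.83 to 3.74 in Dl loss and 2.90 to 3.43 in Notch gain, against 2.37 to 2.79 in wild type. The actin control, too, was higher in all 3 genotypes than in wild type. The GAPDH one was 2.48 to 2.79 in Notch gain against -1.63 to 0.53 in wild type, and overlapped wild type in Dl loss and lmd loss. Controls also differed between the genotypes of equal age. Against Notch gain, lmd loss was lower in GAPDH (-2.69 to 0.92) and higher in actin (1.69 to 2.12 against 1.35 to 1.6). Against Dl loss, Notch gain was lower in actin (1.35 to 1.6 against 1.64 to 1.88). The mean over 9 ectoderm and neural genes was 4.94 to 5.25 in Dl loss, 4.54 to 4.96 in lmd loss and 3.95 to 4.65 in Notch gain, against 4.72 to 4.91 in wild type. Of these GFP positive groups it was highest in Dl loss and lowest in Notch gain, as kirre was, while in wild type GFP negative cells, where the kirre mean was lowest, it was 5.92 to 6.26. The part of these values in the member differences was not tested, and the later age window cannot be told apart from genotype.

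The other myoblast genes gave these values in the same arrays. Of 12 founder identity genes, 3 were higher and 0 lower in Dl loss (median 0.63), 0 were called in lmd loss (median 0.46), and 0 were higher and 5 lower in Notch gain (median -1.01), beside medians of 0.00 over all probe sets. The largest of these falls was that of slou, an identity gene of a founder subset, at -3.03 ± 0.37 in Notch gain, and rols fell by 2.23 there. Of the 4 fusion-competent markers 0 were higher and 3 lower in Dl loss, and 0 were higher and 2 lower in lmd loss, namely blow at -1.79 ± 0.17 and Vrp1 at -2.40 ± 0.20. In Notch gain 0 of 4 were called.

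In the test pooled over sets, both founder-side receptors were higher in the sorted mesoderm. Pooled over the 3 sets (n = 9 arrays each), kirre was higher in GFP positive than in GFP negative wild type cells by 1.51 ± 0.34 (2.84-fold, adjusted p = 0.00389) and rst by 0.72 ± 0.16 (1.65-fold, adjusted p = 0.00315). They were the 2 of 9 members called, a share not far from the 16.7% of all probe sets called. The fusion-competent receptors missed the threshold, with hbs at 0.45 ± 0.16 (adjusted p = 0.0571) and sns 146838_at at 0.25 ± 0.09 (adjusted p = 0.0642). Both were called in some fits that left out an array (adjusted p down to 0.0146 for hbs and 0.0342 for sns 146838_at). A difference between founder-side and fusion-competent receptors at the gate was not tested. In the same arrays 4 of 4 fusion-competent markers were higher, with a median of 2.20, and lmd was at 3.09 ± 0.29. Of the founder identity genes 5 of 12 were higher and 1 was lower, and of the fusion machinery 5 of 9 were higher and 1 was lower, with rols at 2.93 ± 0.33.

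By set, the gate values were as follows. In set 1 the kirre arrays read 4.69, 5.07 and 4.24 in GFP positive cells against 1.96, 2.49 and 2.42 in GFP negative cells, and the difference was 2.38 ± 0.22 (adjusted p = 3.66e-06). In set 3 they read 4.58, 3.21 and 4.28 in GFP positive cells against 1.26, 2.73 and 2.67 in GFP negative cells, a difference of 1.81 ± 0.46 (adjusted p = 0.0359). The groups did not overlap in either set. In set 2 they read 1.40, 1.97 and 2.25 in GFP positive cells against 2.23, 1.05 and 1.34 in GFP negative cells, and overlapped (0.34 ± 0.49, adjusted p = 0.786). The set 3 call for kirre was lost in 3 of 6 fits that left out an array, without GFP positive A or C or GFP negative A (adjusted p up to 0.163), and leaving out both arrays lettered A lowered the difference to 1.05 (adjusted p = 0.311).

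For rst the gate difference was 1.29 ± 0.24 in set 1 (adjusted p = 0.00149), 0.27 ± 0.68 in set 2 (adjusted p = 0.893) and 0.61 ± 0.11 in set 3 (adjusted p = 0.00393). Its GFP positive arrays lay above the GFP negative arrays in every set. In set 2 the rst SD was 0.04 in GFP positive and 0.15 in GFP negative cells, so the SE of 0.68 mostly reflects other groups of that set. For hbs the difference was 0.96 ± 0.12 in set 1 (adjusted p = 5.91e-05), 0.36 ± 0.42 in set 2 and 0.02 ± 0.28 in set 3. For sns 146839_at it was 2.02 ± 0.39 in set 1 (adjusted p = 0.00227), -0.74 ± 0.70 in set 2 and 1.11 ± 0.52 in set 3, so that its sign in set 2 was the opposite of the others.

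Set 1 thus called 4 of 9 members at the gate (15.5% of all probe sets), set 3 called 2 (4.32%), and set 2 called 0 by limma, with 0 at an unadjusted p under 0.05 (14.9%). The test of whether the gate difference itself varied between sets called 0 of 9 members, with 4 at an unadjusted p under 0.05 and 7.94% of all probe sets called. Its adjusted p was 0.104 for sns 146839_at, 0.107 for rst, 0.178 for hbs and 0.181 for kirre, so a difference between sets was not established for any member. The fusion-competent markers were called in all 3 sets (4 of 4 higher in each), in set 2 with a median of 2.62. On the set 2 arrays the hybridization spikes averaged 9.01 to 9.49 in GFP positive cells against 10.09 to 10.43 in GFP negative cells. The 3′ minus 5′ signals were apart there too. GFP positive cells were lower in eIF-4a (2.01 to 2.24 against 2.29 to 2.37) and GAPDH (0.14 to 0.19 against 0.29 to 0.84). They were higher in actin (0.88 to 1.0 against 0.74 to 0.82), as in set 3 (1.0 to 1.34 against 0.66 to 0.83). The part of these values in the gate differences was not tested.

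**Figure D4:**
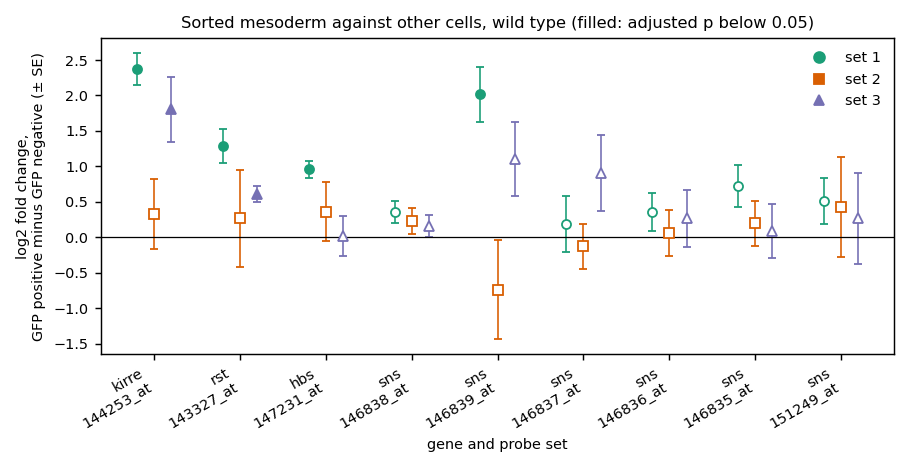
Log2 fold change between GFP positive and GFP negative wild type cells for the 9 member probe sets in sets 1, 2 and 3, with the SE from limma and filled points for an adjusted p below 0.05. Set 1 has filled points for kirre, rst, hbs and sns 146839_at, set 3 for kirre and rst, and set 2 has none.

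Among themselves the 6 sns probe sets were loosely alike. Over the 18 group means, centred within each set, Pearson's r between pairs of them ran from 0.085 to 0.645. In wild type GFP positive cells 146838_at stood at percentiles 81.1 to 88.4 of all probe sets, 146839_at at 27.5 to 54.8, and the other 4 at 30.2 or below. Wild type GFP negative cells had 146838_at at percentiles 78.6 to 84.8. Its gate differences were 0.36, 0.23 and 0.16 in sets 1, 2 and 3. The median SD of 3 replicates was 0.16 on 146838_at and 0.68 on 146839_at, and 0.18 to 0.46 on the other 4, beside 0.15 for rst, 0.19 for hbs and 0.40 for kirre.

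Between genes the centred group means gave r = 0.681 for kirre and rst, 0.446 for rst and hbs, -0.061 for kirre and hbs, and 0.529 for hbs and sns 146838_at, over 18 group means that share arrays and sets. The genes most like each member by this measure, among 4574 probe sets with enough spread, were if (0.944), jeb (0.903) and Nuak (0.875) for kirre. They were pyd (0.801), Mes2 (0.783) and GstD1 (0.772) for rst. For hbs they were CG1273 (0.888), clu (0.887) and vimar (0.856), and for sns 146838_at Ns3 (0.789), CG32813 (0.737) and CRMP (0.719). The gene if encodes an integrin alpha subunit, jeb the secreted ligand of the Alk receptor, and pyd a junctional scaffold protein of the ZO-1 family. These genes were picked from the same group means, so their own differences are not given.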

How the data were processed

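Per the submitters' processing notes, the authors made the deposited log2 values, 1 per probe set and array, with the affy package. Its version, background correction, normalization and summary method are not given in the sources used here, and log2 was inferred from the range (-3.08 to 13.6). The 44 control probe sets were left out, and no filter on low values was set for the other 13966. The data held 10 missing values, 0 of them in member probe sets. limma 3.58.1 (R 4.3.3) fitted group means to all arrays of a set (lmFit, eBayes with a trend). The pooled gate used the 18 wild type arrays, blocked by set, and an F test of the interaction compared it between sets. All p-values are two-sided, with Benjamini-Hochberg adjustment over all probe sets tested. Errors on differences are SE, which draw on the spread of all groups in the fit and not only of those compared. Tables and figures came from matplotlib 3.10.9, numpy 2.4.6 and pandas 2.3.3 under Python 3.11.15.

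Members, lists, tests and alternatives were chosen with earlier results of these data known. Named are the members, each genotype's targeted gene where measured, up to 4 called genes with the smallest p per list and comparison, and the 3 genes most like each member (SD of centred group means at least 0.5). Measured were 9 of 16 fusion machinery, 12 of 12 founder identity, 4 of 4 fusion-competent, 7 of 10 mesoderm, 9 of 10 ectoderm and neural, and 6 of 6 hemocyte genes, and blow and Vrp1 stand in 2 lists. Some genes are not reported here. No separate collections of embryos are stated, so p-values measure only the spread between these samples, which may be technical. The number of arrays limits the precision. By the check of shared deviations, 0 of 22 comparisons had r over 0.1 for every letter. For the letter A alone, r was 0.111 to 0.142 in the comparisons of set 3, which this rule could not register. The alternatives were other variance, scaling and filter settings, the letter as a block, and arrays left out. The fits were tested on simulated data.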

Additional observations from a re-analysis of the deposited data

How the results depend on the processing

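Of 23 calls of member probe sets among 207 differences tested, 16 held in every fit that left out 1 array, and 14 held in every alternative in which the probe set was tested. No member difference changed its sign where it was called. The counts of members called that moved by over 1.5 times come first. By shared deviations no comparison had r over 0.1 for every letter (r between -0.025 and 0.142), though all comparisons of set 3 did for the letter A. The array controls also differed by letter. In set 1 the hybridization spikes averaged 9.607 to 10.141 on arrays lettered A and 7.413 to 8.085 on those lettered B and C. In sets 2 and 3 the A array had the lowest spikes of each group. What the letters mark is not stated in the sources used here. With the replicate block the counts were 1 for spi loss, 1 for Dl loss, 2 for lmd loss and 1 for Notch gain against wild type. Without the letter A the counts were 1 for spi loss, 0 for Pnt gain, 0 for Tkv gain, 1 for Notch gain against Dl loss, 1 for lmd loss against Notch gain and 1 for the gate of set 3. With only the groups compared they were 0 for Pnt gain, 0 for lmd loss against Dl loss, 1 for Notch gain against Dl loss, 1 for lmd loss against Notch gain and 1 for the gate of set 3. Among the brighter probe sets they were 0 for Pnt gain, 1 for Dl loss, 2 for lmd loss and 1 for Notch gain against Dl loss. Without the variance trend they were 1 for Arm+Ras against Arm gain, 1 for lmd loss against Notch gain, 1 for the gate of set 3 and 1 for the gate between sets. With the mean over a gene's probe sets they were 0 for Pnt gain and 1 for Notch gain against Dl loss. Leaving out 1 array gave 0 to 1 for spi loss, 0 to 1 for Pnt gain, 0 to 2 for Tkv gain, 0 to 1 for Arm+Ras against Arm gain, 1 to 2 for Notch gain against Dl loss, 1 to 2 for lmd loss against Notch gain, 2 to 4 for the pooled gate, 1 to 2 for the gate of set 3 and 0 to 1 for the gate between sets. Smaller moves were 2 in place of 3 for FGFR gain in the fit restricted to the groups compared and in that leaving out the letter A, and 3 in place of 4 for lmd loss against Notch gain under quantile normalization and with gene means. The gate of set 1 gave 5 in place of 4 without the variance trend and when GFP positive B was left out, and 3 among the brighter probe sets and with gene means. The pooled gate gave 3 in place of 2 among the brighter probe sets, where kirre was not tested and rst, hbs (adjusted p = 0.0324) and sns 146838_at (adjusted p = 0.0383) were called. The cause of these changes was not tested.

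Over all probe sets, the count of calls relative to that reported was 0.25 to 0.977 times without the variance trend, 0.0312 to 1.05 times with only the groups compared, 0.819 to 2.67 times with the replicate block and 0.0312 to 1.26 times without the letter A. Leaving out 1 array gave 0.312 to 1.22 times, a move of over 1.5 times in 36 of 168 fits, so the shares of all probe sets called move with single arrays. Quantile normalization and median centring kept it within 0.931 to 1.06 times. The fit of only the groups compared was not run for the pooled gate and the gate between sets, which already hold only those arrays, and the fold threshold of 1.5 was not run for the gate between sets. Low signal limits what the dim sns probe sets can show.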
